A study of Mus musculus with 3 samples.

Results

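The genes described here are the 7 tumour necrosis factor receptor-associated factors (*Traf1* to *Traf7*), the TRAF-binding adapter *Tank*, and the kinases *Tbk1* and *Ikbke*, measured in LPS-stimulated RAW 264.7 macrophages with and without prior exposure to lactobacilli. They were chosen by name: every gene probe of the array annotated with one of these symbols was taken. This gave 10 of 24765 genes with a symbol, and 22 of 56605 gene probes. RAW 264.7 is an established mouse macrophage-like cell line.

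Total RNA was labelled with Cy3 and hybridised to 1-colour mouse expression microarrays, 1 array for each of 3 conditions. In the LPS condition, cells plated at 500000 per well received 50 ng/mL of LPS, the agonist of TLR4, without lactobacilli. In the CRL1505 + LPS condition they were first exposed to *L. rhamnosus* CRL1505 at 50000000 cells/mL for 24 h, and in the CRL1506 + LPS condition to *L. plantarum* CRL1506 at the same dose and time. The lactobacilli were washed off before LPS was added. The sample descriptions give 3 h of LPS while the series description and the methods give 12 h, so the labels do not settle the length of stimulation. All 3 conditions carried LPS, and non-stimulated cells were not analysed here. With 1 array per condition no spread between samples can be given and no test was possible; every ratio below compares 2 arrays, and both strains were compared with the same LPS array.

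TRAF proteins are intracellular adapters, most of them RING-type ubiquitin ligases, that carry signals from receptors of the TNF family and from Toll-like receptors. TRAF6 acts below MyD88 and the IRAK kinases and leads to NF-kappaB and MAP kinases, while TRAF3 and TANK lead to TBK1 and IKK-epsilon (the product of *Ikbke*), which phosphorylate interferon regulatory factors and so start the type I interferon response. TRAF1 and A20 (*Tnfaip3*) are themselves products of NF-kappaB target genes, and TRAF1 has no RING domain.

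Levels are given as log2 processed signal after subtracting the array's own 75th percentile of gene spots, so that 0 is the level of a spot at that percentile; levels are compared only between conditions for 1 gene, never between genes. The 75th percentile itself was a signal of 743 on the LPS array, 517 on CRL1505 + LPS and 698 on CRL1506 + LPS, and the share of gene spots called well above background was 54.5%, 48.5% and 55.3%. The CRL1505 + LPS array had a slide and a scan run to itself, and the other 2 arrays shared 1 slide, so strain and slide cannot be told apart in either comparison of CRL1505. Of the 7 macrophage markers, all were well above background on every array, with *Lyz2* at 8.40, 8.40 and 8.15 on LPS, CRL1505 + LPS and CRL1506 + LPS. Of 7 markers of other cell types, *Alb*, *Krt5* and *Cd79a* did not rise well above background anywhere, *Col1a1* and *Cdh5* did so on some arrays and *Cd3e* and *Ms4a1* on all. The macrophage markers did not move alike: *Adgre1* was at 2.61, 4.88 and 3.62 and *Csf1r* at 7.34, 5.87 and 6.47, and their part in the results below was not tested. In RNA of whole cultures, fewer cells expressing a gene and less of its RNA per cell cannot be told apart.

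The probes whose ratios the results turn on are shown by the first 30 of their 60 bases, in the orientation printed in the array files, because each stands for 1 place in a transcript and the probes of *Tank* and *Ikbke* disagreed. Positions are those of the array design in mm9; no annotation of that build was used here, so exons and UTRs are not assigned.
Traf1 probe, mm9 chr2:34798882-34798941, minus strand: ggtcagacattaatgtgaatttaacctgcc
Traf4 probe, mm9 chr11:77972913-77972972, minus strand: tctagtgctaggtgggcacagcaggggaac
Tbk1 probe, mm9 chr10:120988364-120988587, minus strand, across an intron: cccgatctaccccagctctaacaccttagt
Ikbke bright probe, mm9 chr1:133151809-133151868, minus strand: tcacaaggcactcagaagcaatagaaacat
Ikbke dim probe, mm9 chr1:133163076-133163135, minus strand: tgttggacattttgtgttagaacacaccat
Tank probe 1, mm9 chr2:61453113-61453172, plus strand: acatgtgcccacaaacatgaacatacatgc
Tank probe 2, mm9 chr2:61465047-61465812, plus strand, across an intron: ctacttctcgtggattctagtcgagataac
Tank probe 3, mm9 chr2:61487826-61487885, plus strand: tgataaaacagagaaacaagaagcgctgtt
Tank probe 4, mm9 chr2:61491648-61491707, plus strand: ggtggttttggatttgtaacgctagagaac

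After CRL1505, *Tbk1* and *Traf1* rose at least 2-fold against LPS and *Traf4* fell, while none of the 10 genes passed 2-fold after CRL1506. All 10 genes were well above background on all 3 arrays. In CRL1505 + LPS against LPS, 2 of the 10 passed 2-fold upwards and 1 downwards, as did 9.6% and 8.53% of 14894 genes. In CRL1506 + LPS against LPS, 0 of the 10 were past 2-fold in either direction, where 4.68% of 15469 genes were higher and 3.45% lower. Between the strains, *Tbk1* and *Traf5* stood more than 2-fold higher after CRL1505 and *Traf4* lower, 2 and 1 of the 10, where 8.87% and 6.81% of 15013 genes were. A share of 1 or 2 genes in 10 is close to these backgrounds. The median absolute log2 ratio of the 10 genes was 0.64 for CRL1505 and 0.11 for CRL1506 against LPS, beside 0.41 and 0.25 over all genes compared, and the median signed ratio was 0.23 and -0.08, beside 0.01 and -0.07.

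**Figure D1:**
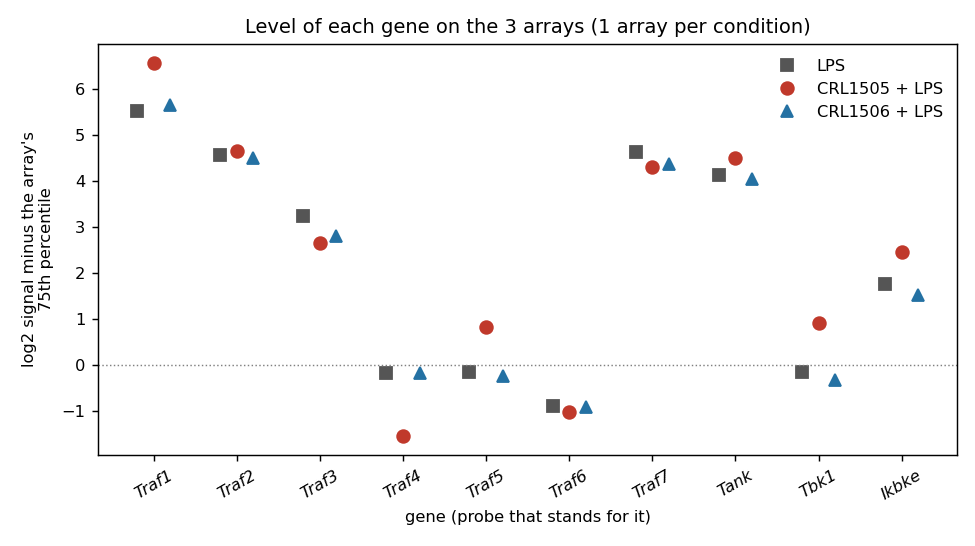
Log2 level of each gene (y axis, relative to the 75th percentile of its array) on the LPS, CRL1505 + LPS and CRL1506 + LPS arrays, 1 point per array. The CRL1505 + LPS point is the highest of the 3 for *Tbk1*, *Traf5*, *Traf1*, *Ikbke*, *Tank* and *Traf2*. It is the lowest for *Traf4*, *Traf3*, *Traf7* and *Traf6*. The LPS and CRL1506 + LPS points of each gene lie within 0.44 of each other.

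The kinases are described first. *Tbk1*, which phosphorylates IRF3, was at -0.14 on LPS, 0.93 on CRL1505 + LPS and -0.32 on CRL1506 + LPS. It rose 2.10-fold after CRL1505, a log2 ratio of 1.07, and was at -0.17 after CRL1506. Its processed signal was 674 ± 67.9 on LPS, 985 ± 98.7 on CRL1505 + LPS and 561 ± 56.7 on CRL1506 + LPS, where the error is the one the scanner software gives to a single spot, mostly a preset 10% of the signal. The CRL1505 + LPS array thus held the highest *Tbk1* signal even before normalization. *Tbk1* has 1 probe, so no second reading of its ratio exists. Over 7 other normalizations the log2 ratio ran from 0.44 to 1.37 after CRL1505 and passed 2-fold in 3 of them; between the strains it was 1.25 and passed 2-fold in 6 of 7.

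*Ikbke*, the inducible kinase related to TBK1, was at 1.78 on LPS, 2.46 on CRL1505 + LPS and 1.53 on CRL1506 + LPS by its bright probe. The log2 ratios were 0.68 and -0.25 against LPS and 0.93 between the strains, below 2-fold in each. By the bright probe the order of the 3 arrays was the same as for *Tbk1*, and also as for *Traf2*, *Traf5* and *Tank* by their brightest probes. The dim probe, which lies 11267 bases upstream in the direction of transcription and matches a predicted transcript, read -3.05, -3.51 and -2.88, a log2 ratio of -0.46 after CRL1505. The probes of *Ikbke* therefore disagreed in sign in every comparison.

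Of the adapters that lead to these kinases, *Traf3* was at 3.24 on LPS, 2.65 on CRL1505 + LPS and 2.80 on CRL1506 + LPS. It was lower after both strains, with log2 ratios of -0.59 and -0.44, and its second probe gave -0.85 and -0.36. Neither probe passed 2-fold, and both strains' comparisons share the LPS array. *Tank*, by its brightest probe (probe 4), was at 4.12, 4.50 and 4.04, with log2 ratios of 0.38 and -0.08. Of the other 3 probes, those numbered 2 and 3 gave 0.28 and 0.65 after CRL1505, and 0.63 and 0.25 after CRL1506.

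*Tank* probe 1 stood apart from the rest. It matches the transcript ENSMUST00000139533 and read -1.29 on LPS, -0.77 on CRL1505 + LPS and 1.18 on CRL1506 + LPS. Its log2 ratio after CRL1506 was 2.47, against 0.52 after CRL1505, and it kept 2.24 to 2.56 over the 7 normalizations. Of 3109 probes whose level on LPS lay within 0.5 of it, 15 (0.482%) had a ratio as high or higher. The probe was singled out for its high ratio, so a small share follows from that choice and is no test. Those probes were matched on level and not on position in the gene. The spot was even on every array. In CRL1506 + LPS the ratio fell along the gene in the order probe 1, 2, 3 and 4, from 2.47 to -0.08.

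The same order of probes was looked at in every gene with a probe pair well above background at least 10000 bases apart. In CRL1506 + LPS against LPS, the most upstream probe had a higher ratio than the most downstream one in all 4 such members: by 2.56 in *Tank*, 1.37 in *Traf6*, 0.67 in *Traf7* and 0.42 in *Ikbke*. Over all 2483 genes of this kind the median difference was 0.37 and 76.9% had the upstream probe higher. In CRL1505 + LPS against LPS the median difference over 2131 genes was -0.17, and *Tank*, *Traf6* and *Ikbke* gave 0.14, 0.02 and -1.14. The upstream probe was the dimmer one in 82.2% of the genes in the first comparison and in 81.7% in the second; the part of probe position and brightness in the *Tank* value was not tested.

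**Figure D2:**
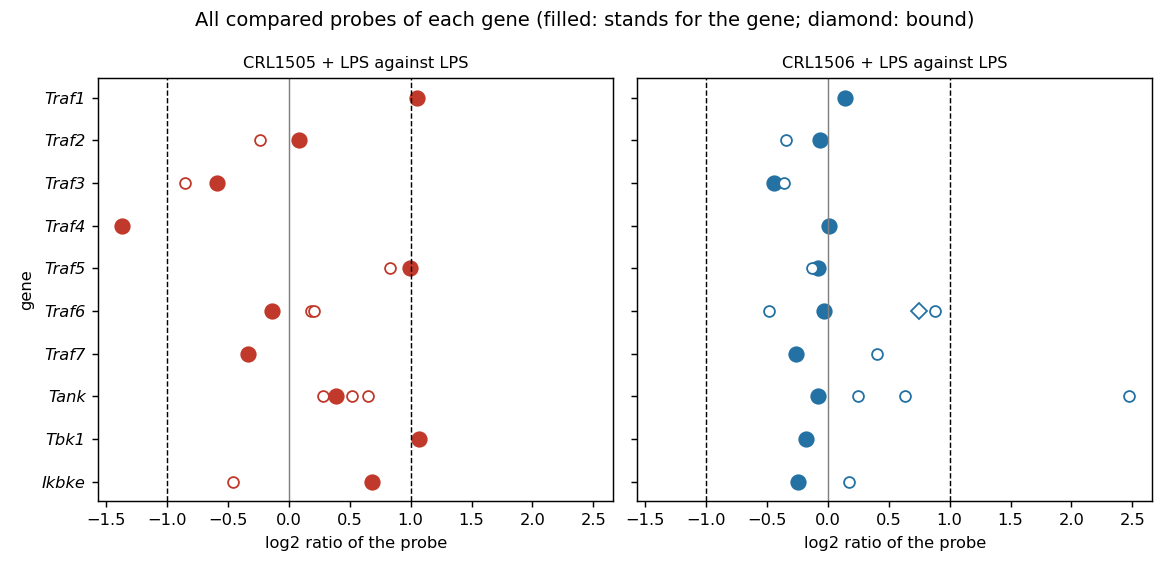
Log2 ratio (x axis) of every compared probe of each gene for CRL1505 + LPS and CRL1506 + LPS against LPS; filled points stand for the gene, open points are its other probes, the diamond is a lower bound and dashed lines mark 2-fold. *Tank* has 1 probe at 2.47 in CRL1506 + LPS while its other 3 lie between -0.08 and 0.63.

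*Traf6*, the ligase that links IRAK kinases to TAK1, was at -0.88 on LPS, -1.02 on CRL1505 + LPS and -0.90 on CRL1506 + LPS. Its log2 ratios of -0.14 and -0.03 were smaller than the spread between probes of 1 gene, whose median SD over all genes was 0.23 and 0.22 for the 2 comparisons. Of its 5 probes, 3 were measured in CRL1505 + LPS against LPS and ranged from -0.14 to 0.20. After CRL1506, 4 probes were compared and ranged from -0.48 to 0.88, 1 of them as a lower bound.

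The remaining TRAFs serve mainly TNF family receptors or other pathways. *Traf1*, induced through NF-kappaB, was at 5.52 on LPS, 6.57 on CRL1505 + LPS and 5.66 on CRL1506 + LPS. It rose 2.07-fold after CRL1505, a log2 ratio of 1.05, and stood at 0.14 after CRL1506. Over the 7 normalizations the CRL1505 ratio was 0.42 to 1.35 and passed 2-fold in 1. *Traf1* also has only 1 probe. *Traf5*, which acts with TRAF2 below CD40 and OX40, was at -0.15, 0.84 and -0.23. Its log2 ratio after CRL1505 was 0.99, just under 2-fold, and 0.83 by a second probe that overlaps the first by all but 16 bases. Between the strains *Traf5* was 1.07, past 2-fold in 4 of 7 normalizations.

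*Traf4*, an adapter with roles in cell polarity and migration, fell after CRL1505. It was at -0.17 on LPS, -1.54 on CRL1505 + LPS and -0.16 on CRL1506 + LPS. The fold was 2.58, a log2 ratio of -1.37, and the processed signal of 661 ± 66.5 on LPS stood against 178 ± 19.1 on CRL1505 + LPS and 626 ± 63.0 on CRL1506 + LPS. *Traf4* has 1 probe, so no second reading of its ratio exists. *Traf4* passed 2-fold under all 7 normalizations, from -2.00 to -1.07. Against CRL1506 + LPS it passed under 6 of 7. *Traf2*, the ligase of TNF receptor complexes, was at 4.57, 4.65 and 4.51 with ratios of 0.08 and -0.06, and its second probe gave -0.24 and -0.34. *Traf7*, which lacks the TRAF domain, was at 4.64, 4.30 and 4.38 with ratios of -0.33 and -0.26; its dim second probe read 0.41 after CRL1506 and was not compared after CRL1505. By their brightest probes *Traf2* lay within the spread between probes and *Traf7* just outside it.

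**Figure D3:**
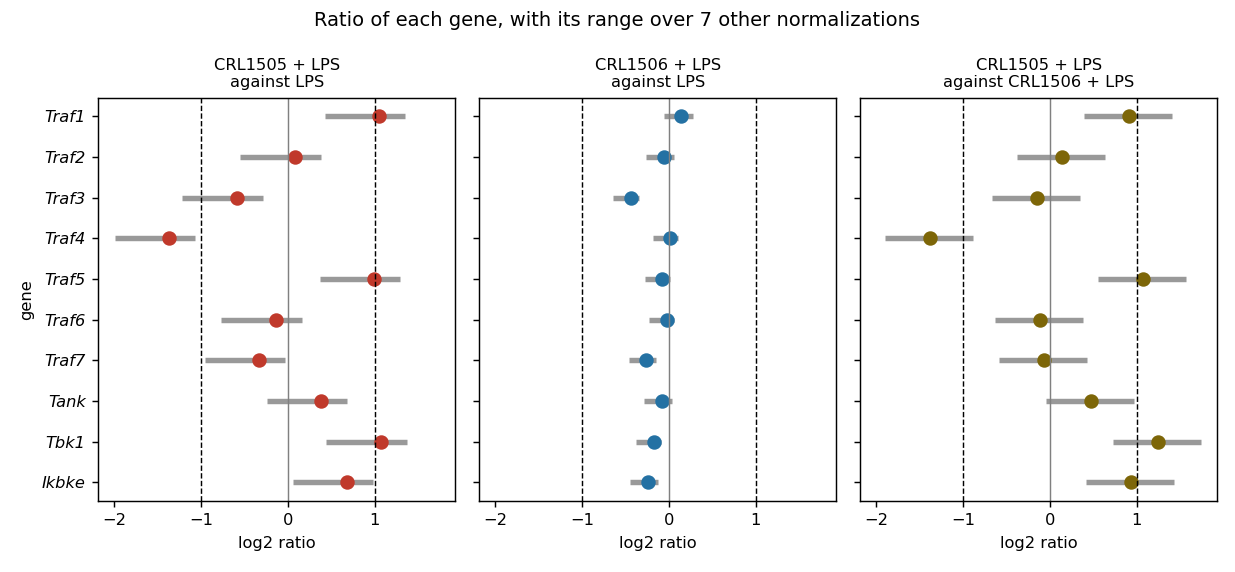
Log2 ratio of each gene (points) in the 3 comparisons, with grey bars for the lowest and highest value over 7 other normalizations and dashed lines at 2-fold. The *Traf4* bar stays below -1 in CRL1505 + LPS against LPS, while those of *Tbk1* (0.44 to 1.37) and *Traf1* (0.42 to 1.35) cross 1.

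A shift of a whole array moves all genes alike, so the distance between *Tbk1* and *Traf4* does not depend on the shift chosen: on the log2 scale it was 2.44 in CRL1505 + LPS against LPS and -0.19 in CRL1506 + LPS against LPS. These 2 genes were the highest and lowest of the 10 after CRL1505, so a wide distance there follows from the choice. Normalizations other than a shift can change it: in the deposited log2 table the CRL1505 ratios were 0.89 for *Tbk1* and -1.11 for *Traf4*. Shifted by the 10 spike-in probes, CRL1505 + LPS against LPS gave 0 of the 10 genes higher and 2 lower, *Traf4* and *Traf3*. The median of all genes moved to -0.61 there. The genes whose ratios lay nearest to those of *Tbk1* for both strains, among 12651 genes well above background on all arrays, were *Raver2* (1.07 and -0.17) and *Mms22l* (1.06 and -0.17). For *Traf1* they were *Sel1l* (1.06 and 0.16) and *Ifi208* (1.05 and 0.16), and for *Traf4* *Tmem37* (-1.36 and -0.05) and *Gpr35* (-1.33 and -0.06). Within 0.1 of both ratios lay 48 genes for *Tbk1*, 69 for *Traf1* and 6 for *Traf4*.

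The promoters of the 3 genes past 2-fold after CRL1505 are shown with that of *Tank*, as far as they precede the annotated gene, from RefSeq windows of 250 bases before to 50 after each start site. All 10 genes matched the table, with 13 windows. The capitals mark an NF-kappaB consensus, searched on both strands together with a GAAA pair (GAAA, any 2 bases, GAAA; the core of interferon-stimulated elements), TGANTCA (AP-1) and TATAAA.
Traf1 promoter, GRCm38.p6 chr2:34961813-34962022, minus strand: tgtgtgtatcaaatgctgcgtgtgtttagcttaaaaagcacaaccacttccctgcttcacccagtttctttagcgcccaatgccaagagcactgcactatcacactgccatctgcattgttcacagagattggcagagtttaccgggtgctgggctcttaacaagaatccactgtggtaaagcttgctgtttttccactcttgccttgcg
Tbk1 promoter, GRCm38.p6 chr10:121586795-121587044, minus strand: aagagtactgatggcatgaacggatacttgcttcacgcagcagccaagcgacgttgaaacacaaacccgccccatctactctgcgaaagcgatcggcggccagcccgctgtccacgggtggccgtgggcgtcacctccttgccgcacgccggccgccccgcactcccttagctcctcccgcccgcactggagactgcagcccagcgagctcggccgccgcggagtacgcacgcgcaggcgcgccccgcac
Traf4 promoter, GRCm38.p6 chr11:78165580-78165800, minus strand: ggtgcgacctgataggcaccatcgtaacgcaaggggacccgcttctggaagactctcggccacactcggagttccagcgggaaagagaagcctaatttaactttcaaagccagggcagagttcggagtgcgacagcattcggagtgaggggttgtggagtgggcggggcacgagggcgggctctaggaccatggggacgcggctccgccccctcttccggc
Tank promoter, GRCm38.p6 chr2:61578307-61578556, plus strand: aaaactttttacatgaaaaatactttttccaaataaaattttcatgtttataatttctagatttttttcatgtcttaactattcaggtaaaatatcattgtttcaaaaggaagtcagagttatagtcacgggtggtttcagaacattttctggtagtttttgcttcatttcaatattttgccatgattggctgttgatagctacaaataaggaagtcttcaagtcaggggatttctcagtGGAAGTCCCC
None of the 4 motifs was found in the windows of *Traf1*, *Tbk1* and *Traf4*. The NF-kappaB consensus stood in all 4 windows of *Tank* and in that of *Traf3*, and in 8.46% of all 32851 windows. The windows of *Tank* form 2 overlapping pairs, so its matches are 2 places for the NF-kappaB consensus and 1 each for TGANTCA and TATAAA. The GAAA pair was in none of the 13 windows and in 3.44% of all, and TGANTCA was in that of *Ikbke* and in 2 of *Tank*, and in 7.81% of all. TATAAA was in 2 windows of *Tank* and in 13.6% of all.

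Around these 10 genes, 81 genes in 6 lists were followed, from receptors to ubiquitin enzymes and related proteins. In CRL1505 + LPS against LPS, 11 of 76 compared passed 2-fold upwards and 1 downwards, beside 9.6% and 8.53% of all genes, with a median log2 ratio of 0.27 beside 0.01. In CRL1506 + LPS against LPS, 1 of 75 was higher and 2 lower, beside 4.68% and 3.45% of all genes, with a median of -0.15 beside -0.07. Between the strains 16 of 75 were higher after CRL1505 and 0 lower, beside 8.87% and 6.81% of all genes. With the spike-in shift these splits became 3 higher and 10 lower for CRL1505 and 2 higher and 4 lower between the strains. Under that shift 647 of all 15277 genes compared were higher and 3871 lower after CRL1505, and 618 and 2963 of 15188 between the strains.

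TRAF-coupled receptors were the list with the highest median. Of 13, 8 were compared and 4 rose after CRL1505, beside 9.6% of all genes, with a median of 1.14. The other 5 were not well above background. *Cd40*, the receptor for CD40 ligand, was at 3.14 on LPS, 4.64 on CRL1505 + LPS and 3.29 on CRL1506 + LPS. *Tnfrsf1b* (TNF receptor type 2) rose by 1.46 after CRL1505 on the log2 scale, and by 0.89 by its other probe, which is below 2-fold. *Tnfrsf9*, encoding 4-1BB, was at 1.56, 2.98 and -0.36, so that it fell by 1.92 after CRL1506 and differed by 3.34 between the strains. *Tnfrsf11a* (RANK) differed by 1.74, and its 3 probes ranged from 0.42 to 1.34 after CRL1505. Over the other normalizations the log2 ratio after CRL1505 ran from 0.87 to 1.79 for *Cd40* and from 0.83 to 1.76 for *Tnfrsf1b*. It ran from 0.79 to 1.72 for *Tnfrsf9* and from 0.71 to 1.64 for *Tnfrsf11a*. Each of these 4 receptors stayed above LPS but was below 2-fold at its lowest.

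Among the adapters and targets of TBK1, 2 of 12 rose after CRL1505, which is near the 9.6% of all genes. *Irf7*, the interferon regulatory factor that TBK1 phosphorylates, was at 6.14, 8.04 and 7.01, log2 ratios of 1.90 and 0.87. *Azi2* (NAP1, an adapter of TBK1) was at -0.41, 1.02 and -0.19, a ratio of 1.43 after CRL1505 and 1.21 between the strains. In the TLR4 to TRAF6 list, 1 of 17 rose after CRL1505, also near that share: *Irak3*, an inhibitor of IRAK signaling, by 1.68. *Ly96* (MD-2, the LPS-binding partner of TLR4) rose by 1.05 after CRL1506, but its other probe read -0.21. *Myd88* and *Peli1* differed between the strains by 1.21 and 1.16.

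Of 19 genes listed as ubiquitin enzymes and related proteins, 3 rose after CRL1505, near the 9.6% of all genes. *Usp18*, which removes ISG15, rose by 2.13 and *Usp25*, a deubiquitinase of TRAF proteins, by 1.32, and *Usp25* differed by 1.47 between the strains, where its other probe read -0.61. *Zc3h12a*, encoding an RNase that limits inflammatory transcripts, fell by 1.18 after CRL1506, where its other probe read -0.49. None of the 10 genes of the IKK complex and NF-kappaB list passed 2-fold against LPS. Of all genes, 9.6% were higher and 8.53% lower after CRL1505, and 4.68% and 3.45% after CRL1506, so 0 of 10 is near these shares. *Nfkb1* and *Nfkb2* differed by 1.10 and 1.05 between the strains, where 8.87% of all genes were higher. There 1 of 3 *Nfkb1* probes read -1.17 and the other *Nfkb2* probe 0.64. Of 10 TRAF-binding proteins, *Trafd1*, a brake on innate signaling, rose by 1.56 and *Map4k2*, a kinase that binds TRAF2, fell by 1.12 after CRL1505. That is 1 of 10 in each direction, near the shares of all genes.

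**Figure D4:**
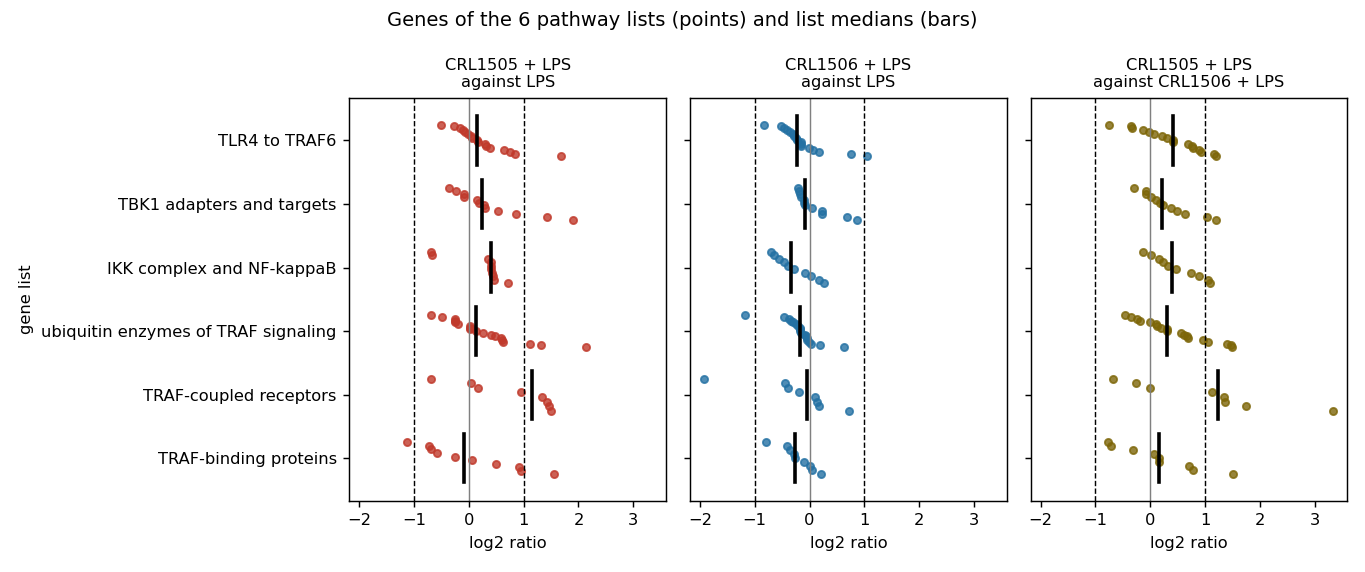
Log2 ratio (x axis) of each compared gene of the 6 pathway lists (points) in the 3 comparisons, with list medians as black bars and 2-fold as dashed lines. The TRAF-coupled receptors have a median of 1.14 in CRL1505 + LPS against LPS and -0.05 in CRL1506 + LPS against LPS.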

How the data were processed

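The authors deposited, for each of the 3 arrays, scanner output of Feature Extraction (version 12.0.3.1 in the files), whose processed signal is an intensity with a fitted background surface subtracted and spatial trends removed, not normalized between arrays. They also deposited a table of log2 values normalized between arrays, with a median of 6.77 on each; its scale was used as given, as an alternative. Depth has no meaning here: the number of arrays, 1 per condition, limits the precision.

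The log2 intensity was shifted by each array's 75th percentile over 59305 gene spots. Outlier spots (467, 241 and 274 on LPS, CRL1505 + LPS and CRL1506 + LPS) were left out and repeated spots averaged. The median SD between repeated spots was 0.048, 0.044 and 0.047 for CRL1505 and CRL1506 against LPS and between the strains. A gene was read by its brightest probe without an outlier spot. A ratio is a lower bound where 1 side was not well above background. Genes were kept if their name is a RefSeq symbol (GRCm38.p6) or a synonym of 1 symbol, 24765 of 36870. The t-test and limma fit of the study's methods need replicates and were not run.

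The members and lists were chosen with earlier results of these data known. Named were all members with their probes, per list and comparison the 2 highest and 2 lowest genes past 2-fold, and the 2 nearest genes to each member past 2-fold against LPS. The comparison of upstream with downstream probes, that with probes of like brightness, the TATAAA search and the distance between *Tbk1* and *Traf4* were chosen after values were seen. So was 1 of the 15 alternatives, a second spike-in scaling; the other 14 were the median, quantile normalization, cyclic loess, the percentile over detected probes, spike-in probes, normexp with an offset of 50, the deposited table, no filter on dim probes, the mean over probes, a requirement of signal above background on all 3 arrays, outlier spots kept, uneven spots left out, and thresholds of 1.5-fold and 4-fold. Python 3.11.15, pandas 2.3.3, R 4.3.3 and limma 3.58.1 (normalization only) were used, and the code that computes the ratios was checked on simulated arrays with known fold changes.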

Additional observations from a re-analysis of the deposited data

Results flagged for a closer look

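*Tank* probe 1, which does not stand for its gene in the counts, read a log2 ratio of 2.47 in CRL1506 + LPS against LPS, a signal outside the main values of the gene, whose brightest probe read -0.08.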

How the results depend on the processing

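No paired analysis was possible because each condition had 1 array and nothing pairs the arrays. In CRL1505 + LPS against LPS, where 3 members passed 2-fold, the count was 1 with the percentile over detected probes, with normexp and with the deposited table. Over all genes, higher and lower were 1230 and 1519 of 15105, 932 and 732 of 14768, and 924 and 760 of 15137 in that order. The member count was 6 at 1.5-fold and 0 at 4-fold, beside 2772 and 2589 of all 14894 genes and 423 and 229. Between the strains, where 3 members passed, the count was 1 with either spike-in scaling (0 higher, 1 lower), 5 at 1.5-fold and 0 at 4-fold. Over all genes, higher and lower were 618 and 2963 of 15188 and 690 and 2573 of 15214 with the 2 spike-in scalings. They were 2873 and 2450 of 15013 at 1.5-fold and 348 and 141 at 4-fold. Higher and lower members after CRL1505 were 3 and 1 with the median shift and 0 and 2 with either spike-in scaling. Over all genes, higher and lower were 2241 and 730 of 14440 with the median shift. With the 2 spike-in scalings they were 647 and 3871 of 15277, and 713 and 3249 of 15307. Between the strains the median shift gave 4 and 0 members, beside 3372 and 371 of 14219 genes. The second spike-in scaling, added after the first one's values were seen, moved the median of all genes to -0.52, where the first gave -0.61. After CRL1506, 1595 of 15469 genes were higher and 1429 lower at 1.5-fold. The count of members after CRL1506 stayed at 0 under all 15 alternatives, but some of these could not change it. A 4-fold threshold cannot raise a count of 0. Every probe standing for a member was even, well above background and without an outlier spot. The settings for dim, outlier and uneven spots therefore gave the main ratios again.

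Pathway genes past the threshold after CRL1505 numbered 29 at 1.5-fold and 1 at 4-fold, beside 12. Of all 14894 genes, 2772 were higher and 2589 lower at 1.5-fold, and 423 and 229 at 4-fold. After CRL1506 they numbered 5 with the mean over probes, 12 at 1.5-fold and 0 at 4-fold, beside 3. Between the strains they numbered 31 with the median shift, 10 with quantile normalization, cyclic loess, the percentile over detected probes, normexp or the deposited table, 6 and 9 with the 2 spike-in scalings, 34 at 1.5-fold and 1 at 4-fold, beside 16. No ratio of a member past 2-fold changed sign. Of 130 recomputed member ratios per comparison, 37 moved by more than the spread between probes for CRL1505 against LPS, 3 for CRL1506 and 37 between the strains. The 130 include the settings for dim, outlier and uneven spots, which could not move a member ratio. The mean over probes took *Tank* to 0.82 and *Traf6* to 0.38 after CRL1506, *Ikbke* to 0.11 after CRL1505, and *Traf7* to 0.07 after CRL1506, a change of sign, and to -0.80 after CRL1505. With 1 array per condition, differences between arrays and between conditions cannot be told apart.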
